A study of Homo sapiens with 16 samples.

Results

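The mRNAs of 8 genes that make, sense and export cholesterol were followed in 2 human leukemia lines treated with Ro 08-2750 (Ro), a small molecule that binds the MUSASHI RNA-binding proteins. The genes are the synthesis enzymes HMGCS1, IDI1, FDFT1, SQLE and DHCR7, the sterol-sensing genes INSIG1 and SREBF2, and the exporter ABCA1. They were taken by symbol from a table of read counts for 25221 genes, and each matched a single row. MOLM13 is an acute myeloid leukemia line and K562 is an erythroid line derived from a blast-crisis chronic myeloid leukemia. Cells of each line were given 20 μM Ro in DMSO, or DMSO alone as vehicle, for 4 h, and no genotype was altered in any group. Each line had 4 DMSO and 4 Ro libraries, numbered as pairs 1 to 4, which gave 16 libraries. No source says whether a pair is a separate culture or a separate day, so the p-values measure only the spread between these libraries.

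Cells build cholesterol from acetyl-CoA through the mevalonate pathway, and the transcription factor SREBP-2, encoded by SREBF2, switches on most genes of that pathway. When sterols are plentiful, the SREBP precursor is held in the endoplasmic reticulum by INSIG proteins. When sterols fall, it is cut and its active part enters the nucleus, where INSIG1 is itself a target. ABCA1 moves cholesterol out of the cell and is switched on by the sterol-activated LXR receptors, so the exporter and the synthesis genes usually answer to opposite sterol states. SREBP-2 is regulated mostly by this cutting, and an mRNA level of SREBF2 does not measure its activity.

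Promoters are shown for 5 members because they are the DNA on which sterol control acts. The 250 bases before the start of each gene are given 5′ to 3′ on the gene's strand, from RefSeq (GRCh38.p14). Capitals mark the core of the sterol regulatory element (TCACNCCAC) and the NF-Y box (CCAAT, or ATTGG where it lies on the other strand).
HMGCS1 (chr5:43313413-43313662, minus strand): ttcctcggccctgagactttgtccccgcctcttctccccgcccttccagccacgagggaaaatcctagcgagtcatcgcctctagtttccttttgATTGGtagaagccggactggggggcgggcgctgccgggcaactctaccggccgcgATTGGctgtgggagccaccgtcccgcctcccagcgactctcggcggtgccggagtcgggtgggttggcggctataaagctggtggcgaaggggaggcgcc
DHCR7 (chr11:71448394-71448643, minus strand): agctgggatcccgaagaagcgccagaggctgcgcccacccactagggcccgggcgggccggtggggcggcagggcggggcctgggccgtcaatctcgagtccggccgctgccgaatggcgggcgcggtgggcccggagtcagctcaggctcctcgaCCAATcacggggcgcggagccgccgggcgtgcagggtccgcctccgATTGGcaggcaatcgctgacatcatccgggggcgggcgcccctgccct
INSIG1 (chr7:155297628-155297877, plus strand): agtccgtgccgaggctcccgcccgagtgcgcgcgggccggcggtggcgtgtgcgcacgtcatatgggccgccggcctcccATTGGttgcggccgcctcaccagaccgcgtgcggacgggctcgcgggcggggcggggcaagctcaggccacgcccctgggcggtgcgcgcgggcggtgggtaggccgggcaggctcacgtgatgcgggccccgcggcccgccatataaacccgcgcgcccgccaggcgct
SREBF2 (chr22:41832855-41833104, plus strand): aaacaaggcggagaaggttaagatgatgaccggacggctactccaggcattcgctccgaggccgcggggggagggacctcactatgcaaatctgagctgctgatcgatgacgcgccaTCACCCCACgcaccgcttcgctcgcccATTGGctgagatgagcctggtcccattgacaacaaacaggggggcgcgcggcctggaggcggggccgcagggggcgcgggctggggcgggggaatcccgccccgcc
ABCA1 (chr9:104928156-104928405, minus strand): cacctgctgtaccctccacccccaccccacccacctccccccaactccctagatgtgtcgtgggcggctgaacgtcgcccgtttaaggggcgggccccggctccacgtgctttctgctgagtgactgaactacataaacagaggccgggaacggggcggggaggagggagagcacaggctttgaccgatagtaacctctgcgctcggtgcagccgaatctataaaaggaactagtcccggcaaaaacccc

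The search covered both strands from 250 bases before to 50 bases after the start. Entries were found for 6 of the 8 members, all but SQLE and FDFT1. The sterol regulatory element core was present in the promoter of SREBF2, at position -133 from the start, and in 1.13% of all 35116 promoters. It was in 0 of 13 promoters of other synthesis enzymes searched. A missing match to these exact letters does not show that a gene lacks a sterol element. The NF-Y box was present in HMGCS1, DHCR7, INSIG1 and SREBF2 and in neither IDI1 nor ABCA1, which makes 4 of 6 members beside 34.6% of all promoters. The SP1 box (GGGCGG) was present in 6 of 6 members and in 45.0% of all promoters. The window of DHCR7 lies inside the annotated span of that gene, which runs from 71427287 to 71449043 on chromosome 11. A match of letters is a description of the window, not a bound site.

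Total counts ran from 3143129 to 43571060 per library, and K562 DMSO pairs 2 and 4 were the shallowest, with 3143129 and 4383241 counts. Of 16 marker genes listed for the lines, 14 had no overlap in level between MOLM13 and K562, and CD33 and LYZ overlapped. Levels are given as CPM, counts scaled to the library total with TMM factors, and reads come from the 3′ ends of mRNAs. A CPM is a share of the RNA in a library of many cells, so fewer cells with an mRNA and less of it per cell cannot be told apart. MOLM13 pair 4 stood apart from the other pairs of that line for many of the members, in the DMSO and the Ro library alike. Pair 1 of that line lay low for the same members. The changes with Ro and the line differences that pair 4 moved most are given with and without it.

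With all 4 pairs, edgeR called none of the 8 mRNAs changed by Ro in either line at an adjusted p of 0.05, with or without the pair block. In a fit of K562 pairs 1 and 3 alone INSIG1 was called higher (adjusted p = 0.0470). That fit called 195 genes higher and 223 lower of 13667, and its 4 libraries measure the spread of each gene poorly. In MOLM13 the edgeR quasi-likelihood test called 0 of 8 members and 0% of the 15031 genes tested, and the unadjusted p was under 0.05 for 126 genes with more and 49 with less mRNA. With the pair number as a block it called 0 of 8 members beside 2.11% of genes, 141 higher and 176 lower. In K562 it called 0 of 8 members and 0% of 15227 genes with or without the block, while DESeq2 with the block called 2 genes. In these fits of all 4 pairs the smallest adjusted p among the members was 0.150, for SQLE in MOLM13 with the block. At an unadjusted p under 0.05 the blocked fit held 2 of 8 members in MOLM13, SQLE and INSIG1, beside 17.2% of genes. In K562 it held 1 of 8 members, INSIG1, beside 2.11% of genes.

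**Figure D1:**
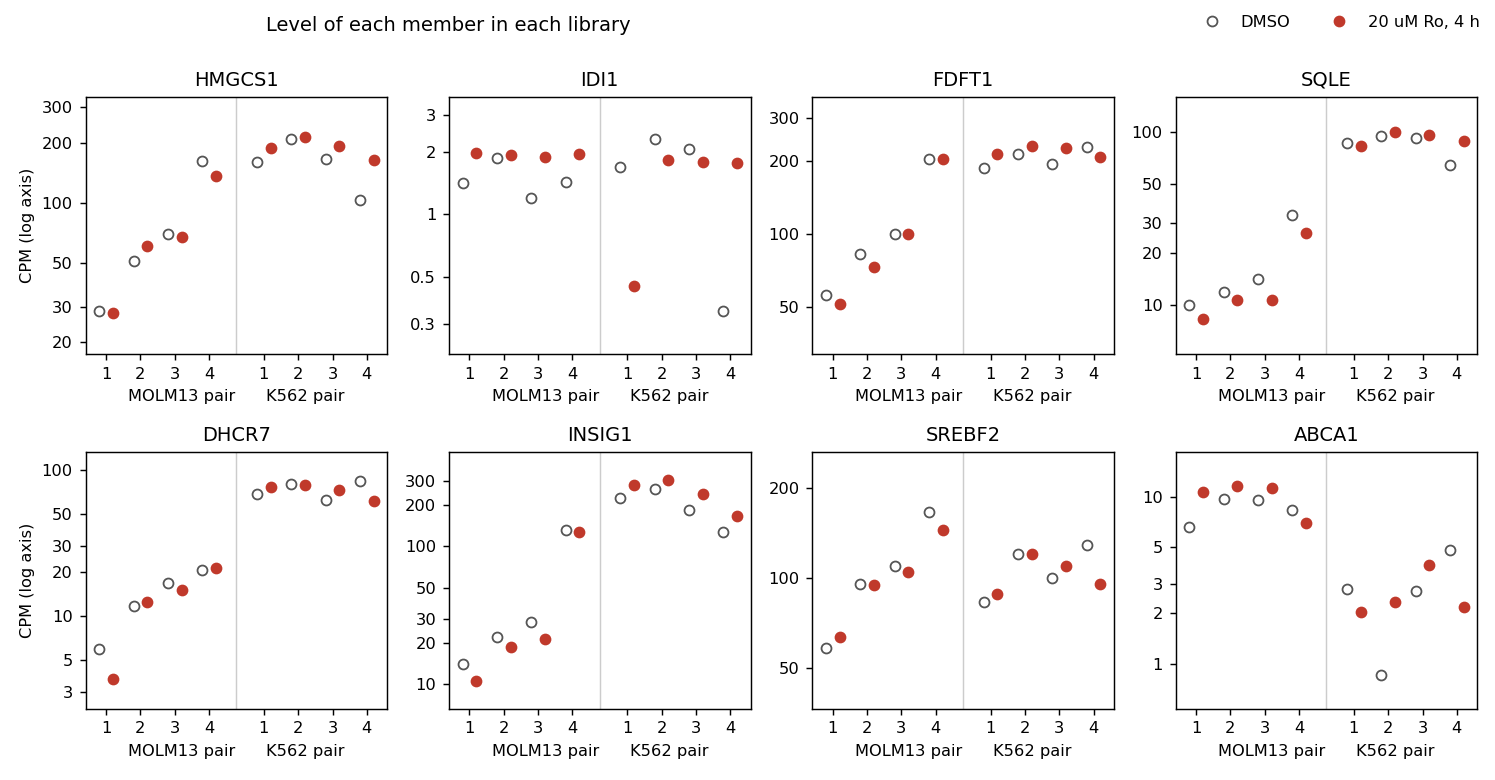
Level of each member in each of the 16 libraries, in CPM on a log axis, by line and pair, with DMSO as open and Ro as filled circles. In MOLM13, 6 of the 8 members were highest in both pair 4 libraries, and the DMSO and Ro points of a pair lay close together.

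HMGCS1, which makes HMG-CoA at the entry of the mevalonate pathway, differed more between pairs than between treatments in MOLM13. With DMSO it stood at 28.6, 50.7, 69.4 and 162 CPM in MOLM13 pairs 1 to 4, and with Ro at 27.8, 60.5, 67.1 and 135 CPM. The groups overlapped almost completely, and only pair 2 was higher with Ro. The blocked log2 change of HMGCS1 in MOLM13 was -0.01 (95% interval -0.18 to 0.16, adjusted p = 0.964). In K562 HMGCS1 stood at 161, 209, 165 and 103 CPM with DMSO and at 189, 212, 193 and 164 CPM with Ro. It was higher with Ro in 4 of 4 K562 pairs, but the log2 difference ran from 0.02 in pair 2 to 0.68 in pair 4, whose DMSO library was shallow. The share of all genes that were higher in all 4 K562 pairs was not counted. The blocked log2 change of HMGCS1 in K562 was 0.28 (-0.06 to 0.63, adjusted p = 0.947).

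IDI1, the isomerase that supplies the activated isoprene unit, was counted by few reads. With DMSO it had 1.41, 1.86, 1.21 and 1.43 CPM in MOLM13, and with Ro 1.97, 1.94, 1.89 and 1.94 CPM. The 4 Ro libraries of MOLM13 all lay above the 4 DMSO libraries for IDI1, as did 0.705% of genes tested, on counts of 10 to 49 reads per library. The blocked log2 change was 0.41 (-0.05 to 0.88, adjusted p = 0.351). In K562 the IDI1 counts were 2 in DMSO pair 4 and 6 in Ro pair 1, and the log2 differences by pair ran from -1.69 to 2.07. No direction could be read for IDI1 in K562.

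FDFT1, squalene synthase, makes the first committed intermediate of sterol synthesis, and SQLE, squalene epoxidase, acts next. FDFT1 in MOLM13 stood at 56.2, 83.0, 100 and 204 CPM with DMSO and at 51.6, 73.5, 100 and 204 CPM with Ro. The paired values were nearly alike, and the blocked log2 change was -0.05 (-0.20 to 0.10, adjusted p = 0.779). In K562 FDFT1 ran from 186 to 229 CPM with DMSO and from 208 to 230 CPM with Ro, with a blocked log2 change of 0.09 (-0.23 to 0.41).

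SQLE, a controlled step of the later pathway, had less mRNA with Ro in every MOLM13 pair. With DMSO it stood at 10.0, 11.9, 14.2 and 33.1 CPM in pairs 1 to 4, and with Ro at 8.39, 10.8, 10.7 and 26.2 CPM. SQLE was lower with Ro in 4 of 4 MOLM13 pairs, though the groups overlapped and pair 4 was high in both. The share of all genes that were lower in all 4 MOLM13 pairs was not counted. The blocked log2 change was -0.28 (-0.48 to -0.07, unadjusted p = 0.0110, adjusted p = 0.150) and the unblocked one was -0.29 (adjusted p = 1.00). In K562 SQLE stood at 87.1, 95.6, 93.2 and 64.9 CPM with DMSO and at 83.3, 100, 97.0 and 88.9 CPM with Ro. Its blocked log2 change there was 0.12 (-0.19 to 0.44, adjusted p = 0.947).

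DHCR7, which reduces dehydrocholesterol to cholesterol, stood at 5.92, 11.7, 16.8 and 20.6 CPM with DMSO in MOLM13 and at 3.68, 12.5, 15.1 and 21.0 CPM with Ro. Its blocked log2 change in MOLM13 was -0.06 (-0.29 to 0.17). In K562 DHCR7 ran from 61.4 to 83.0 CPM with DMSO and from 60.9 to 78.7 CPM with Ro, and the blocked log2 change was -0.02 (-0.38 to 0.34). The direction by pair was split evenly in both lines, 2 pairs higher and 2 lower in each.

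INSIG1, the sterol-sensing anchor, moved in opposite directions in the lines by pair, a split whose share over all genes was not counted. In MOLM13 it stood at 13.9, 22.1, 28.2 and 132 CPM with DMSO and at 10.6, 18.8, 21.2 and 127 CPM with Ro, and was lower with Ro in 4 of 4 pairs. The blocked log2 change was -0.22 (-0.40 to -0.05, unadjusted p = 0.0146, adjusted p = 0.170). Without pair 4 it was -0.32 (adjusted p = 0.109), and over the blocked fits that left out 1 pair the adjusted p ran from 0.109 to 0.610. In K562 INSIG1 stood at 224, 260, 185 and 127 CPM with DMSO and at 281, 305, 238 and 166 CPM with Ro, and was higher with Ro in 4 of 4 pairs by 0.23 to 0.39 on the log2 scale. The blocked log2 change there was 0.32 (0.02 to 0.62, unadjusted p = 0.0392, adjusted p = 0.947). With K562 pairs 1 and 3 alone, which leaves out the pairs with shallow DMSO libraries, the change of INSIG1 was 0.34 and its adjusted p was 0.0470, against 0.706 to 1.00 in the other K562 fits. In that fit 1 of 7 members tested was called higher, beside 1.43% of 13667 genes.

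The difference between the lines was tested directly, as the change in K562 minus the change in MOLM13. INSIG1 differed by 0.58 on the log2 scale with the block (0.26 to 0.89, unadjusted p = 0.00174, adjusted p = 0.766) and SQLE by 0.40 (0.07 to 0.74, unadjusted p = 0.0222, adjusted p = 0.766). These 2 of 8 members were below an unadjusted p of 0.05, beside 6.01% of 16224 genes, and 0% of genes passed the adjusted threshold in edgeR while DESeq2 with the block called 3. Averaged over both lines with the block, 0 of 8 members were called, beside 0.037% of genes.

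SREBF2, the gene of SREBP-2 itself, stood at 58.2, 95.1, 109 and 165 CPM with DMSO in MOLM13 and at 63.5, 94.4, 104 and 145 CPM with Ro. Its blocked log2 change was -0.03 in MOLM13 (-0.18 to 0.13) and -0.06 in K562 (-0.40 to 0.29). ABCA1, the exporter, stood at 6.62, 9.68, 9.50 and 8.31 CPM with DMSO in MOLM13 and at 10.7, 11.6, 11.3 and 6.99 CPM with Ro. ABCA1 was higher with Ro in 3 of 4 MOLM13 pairs and lower in pair 4, and its blocked log2 change was 0.21 (-0.06 to 0.48, adjusted p = 0.421). Without pair 4 the change of ABCA1 was 0.38 (adjusted p = 0.136) and without pair 1 it was 0.11 (adjusted p = 0.777). In K562 ABCA1 ran from 0.861 to 4.80 CPM with DMSO, the lowest of these resting on 3 reads, and from 2.05 to 3.88 CPM with Ro. Its log2 differences there ran from -1.09 to 1.34.

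**Figure D2:**
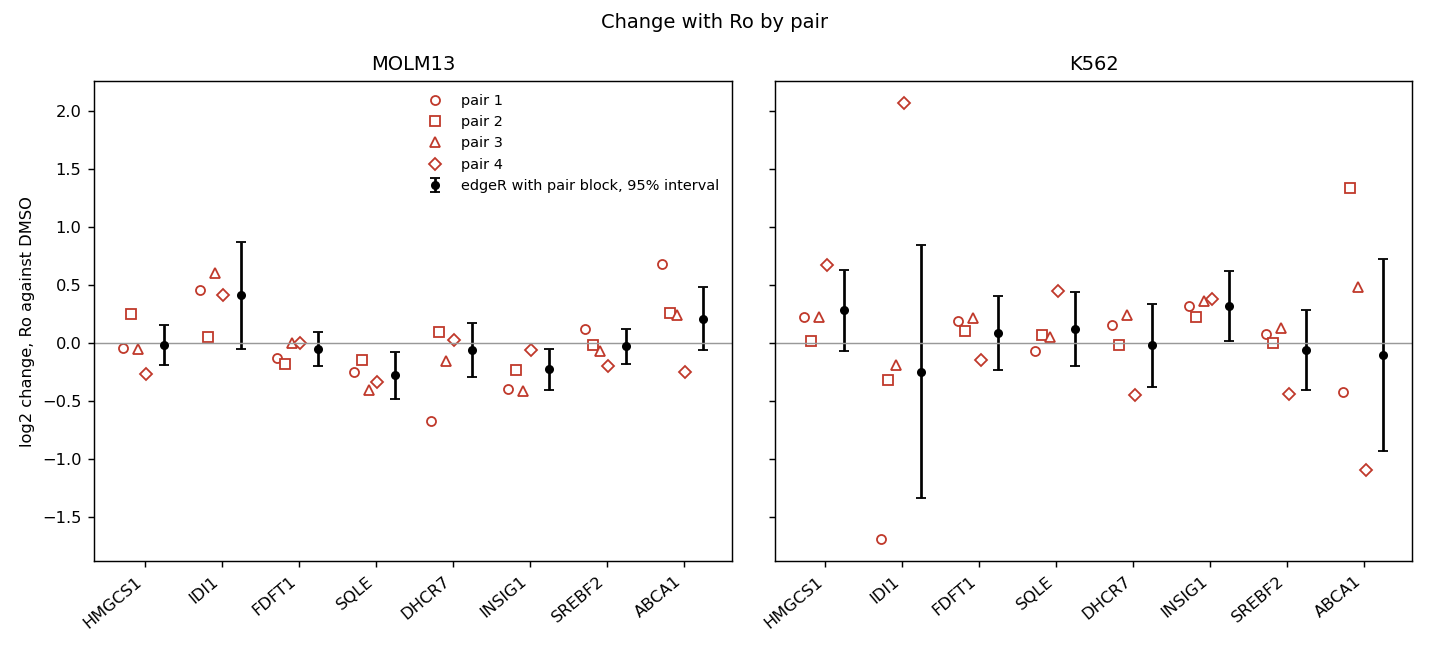
Change of each member with Ro by pair (open symbols, log2 of Ro against DMSO) and the blocked edgeR estimate with its 95% interval (black), in MOLM13 (left) and K562 (right). INSIG1 lies below 0 in all 4 MOLM13 pairs and above 0 in all 4 K562 pairs, and the K562 spread of IDI1 and ABCA1 is the widest.

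None of the other pathway genes passed the adjusted threshold with Ro. Of 16 other synthesis enzymes, all tested, 0 were called in either line with the block, and their median log2 change was -0.02 in MOLM13 and 0.06 in K562. FDPS, which makes farnesyl diphosphate, had 0.33 in MOLM13 (unadjusted p = 0.00880, adjusted p = 0.138), and PMVK, phosphomevalonate kinase, had -0.24 (adjusted p = 0.159). MSMO1, a sterol demethylation enzyme, had 0.34 in K562 (unadjusted p = 0.0278, adjusted p = 0.947). Among the genes of SREBP processing and sterol uptake, 0 of 9 tested were called in MOLM13 and 0 of 10 in K562. SCAP, the SREBP escort, had -0.25 in MOLM13 (adjusted p = 0.0840), and NPC1, which releases cholesterol from lysosomes, had 0.38 (adjusted p = 0.0916). The LXR list gave 0 of 5 in MOLM13 and 0 of 6 in K562, and the SREBP1 and fatty acid list gave 0 of 9 in each. The median over all genes tested was 0.00 in MOLM13 and 0.02 in K562.

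The highest MOLM13 levels of most members lay in pair 4, under DMSO and Ro alike. Both pair 4 libraries lay above the other 6 libraries of the line for 6 of 8 members, beside 29.6% of the 15031 genes tested. The log2 level in pair 4 minus the mean of pairs 1 to 3 was 2.82 for INSIG1 (7.08-fold), 1.64 for HMGCS1, 1.44 for FDFT1, 1.43 for SQLE, 1.10 for DHCR7 and 0.86 for SREBF2. It was -0.02 for IDI1 and -0.35 for ABCA1, and the median over all genes was 0.01. Pair 1 lay the other way. Its log2 level minus the mean of the other pairs was -1.74 for DHCR7, -1.71 for INSIG1 and -1.54 for HMGCS1. For FDFT1 it was -1.12, for SREBF2 -0.93 and for SQLE -0.80. IDI1 had -0.01 and ABCA1 -0.16, and the median over all genes was -0.08. With DMSO the 6 members highest in pair 4 rose at each step from pair 1 to pair 4. The share of all genes that rose this way was not counted, and these 6 were picked for being highest in pair 4.

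The lists around the members differed in how many genes were highest in pair 4. Their median log2 difference was 0.74 for the other synthesis enzymes, 0.45 for the SREBP1 and fatty acid list, 0.36 for SREBP processing and sterol uptake and -0.20 for the LXR list, against 1.27 for the members. Of 16 other synthesis enzymes, 12 were highest in both pair 4 libraries, among them MVK, mevalonate kinase, with a log2 difference of 1.63. Of the SREBP1 and fatty acid list, 6 of 9 were, with 2.07 for SREBF1, the gene of SREBP-1, and 1.87 for SCD, the stearoyl-CoA desaturase. Of the genes of SREBP processing and sterol uptake 4 of 9 were, and of the LXR list 2 of 5. In K562, 0 of 8 members were highest in both pair 4 libraries, beside 8.4% of genes. These counts have no test, since MOLM13 pair 4 was singled out after its values were seen. The total count of MOLM13 DMSO pair 4 was the highest of that line, at 39978791. The share of reads on LOC100507412, a gene listed by identifier without a symbol in the counts, fell from MOLM13 pair 1 to pair 4. It was 22.3% and 24.3% in the DMSO and Ro libraries of pair 1 and 14.6% and 15.3% in those of pair 2. Pair 3 had 12.0% and 9.16%, and pair 4 had 4.11% and 6.29%. The part of the total count or of this share in the levels by pair was not tested.

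**Figure D3:**
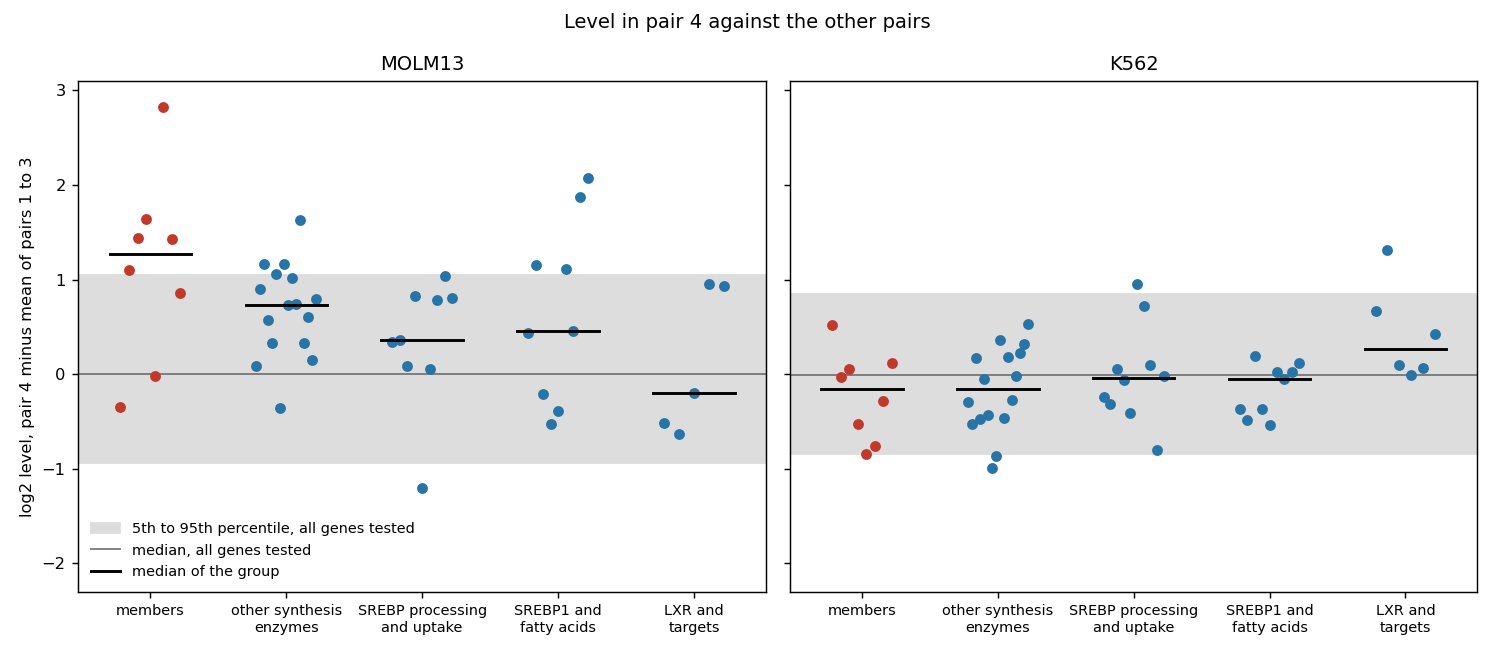
Log2 level in pair 4 minus the mean of pairs 1 to 3, averaged over DMSO and Ro, for the members (red) and the genes of 4 pathway lists (blue), in MOLM13 (left) and K562 (right). The grey band spans the 5th to 95th percentile of all genes tested, and 5 MOLM13 members, from 1.10 to 2.82, lie above its upper edge at 1.05.

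Across the 8 libraries of MOLM13 6 of the members varied together. Against the mean of the other members without ABCA1, the correlation of log2 CPM was 0.99 for HMGCS1, 0.99 for FDFT1, 0.97 for SREBF2, 0.95 for INSIG1, 0.93 for SQLE and 0.85 for DHCR7. It was -0.15 for IDI1 and -0.29 for ABCA1. Without pair 4 the first 6 correlations ran from 0.81 to 0.98, and that of ABCA1 was 0.43. In the 8 libraries of K562 SQLE (0.93) and HMGCS1 (0.84) were above 0.8. INSIG1 had 0.59, IDI1 0.40, FDFT1 -0.03, SREBF2 -0.03, DHCR7 -0.14 and ABCA1 -0.57. Without K562 pair 4 the values were 0.91 for SQLE, 0.90 for SREBF2, 0.65 for HMGCS1 and 0.52 for FDFT1. They were 0.37 for DHCR7, 0.14 for INSIG1, 0.08 for IDI1 and -0.32 for ABCA1. Same-numbered DMSO and Ro libraries deviated together, and each line has 4 pairs, so these values are descriptions. Over all 16 libraries, centred within each line, the genes most like the mean of the 7 members other than ABCA1 among 13818 candidates were GRB10 (r = 0.97), MID1IP1, SNX5, XPNPEP1 and CCDC34. In MOLM13 alone these genes, all outside the pathway lists, had r of 0.97 to 0.99. How many of all genes varied this closely with the members was not counted. The genes most like ABCA1 were CDH10 (r = 0.96), CYTIP, SLC22A6, SLC30A8 and C6. They averaged 2.01 to 7.23 CPM in either line. Their r with ABCA1 ran from 0.60 to 0.97 in MOLM13 alone and from 0.93 to 0.98 in K562 alone. ABCA1 itself had only 3 reads in K562 DMSO pair 2. How many of all genes varied this closely with ABCA1 was not counted.

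With DMSO alone the lines differed in 5 of the 8 mRNAs. In the DMSO libraries 4 of 8 members were lower in MOLM13 than in K562, namely DHCR7, SQLE, INSIG1 and FDFT1, beside 20.3% of 15268 genes, and 1 of 8, ABCA1, was higher, beside 21.1% of genes. DHCR7 and SQLE were higher in every K562 DMSO library than in any MOLM13 one, as were 18.6% of genes. ABCA1 was higher in every MOLM13 DMSO library than in any K562 one, as were 20.6% of genes. Each group is a single established line, so the difference is between these lines and not between disease types.

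The DHCR7 level was 13.8 CPM ± 6.39 (SD, n = 4) in MOLM13 and 73.1 CPM ± 9.96 (SD, n = 4) in K562, a log2 difference of -2.40 (SE 0.31, edgeR adjusted p = 3.3e-05). For SQLE the level was 17.3 CPM ± 10.7 against 85.2 CPM ± 14.0, a log2 difference of -2.29 (SE 0.34, edgeR adjusted p = 0.000105). For INSIG1 it was 49.1 CPM ± 55.7 against 199 CPM ± 57.2, a difference of -2.02 (SE 0.57, edgeR adjusted p = 0.0115). The INSIG1 groups overlapped through 1 library, MOLM13 DMSO pair 4 at 132 CPM against 127 CPM in K562 DMSO pair 4. Without the MOLM13 library of pair 4 the INSIG1 difference was -3.20 (adjusted p = 1.06e-05), or 9.17-fold lower in MOLM13, and over all fits with another setting or library left out its adjusted p ran from 1.06e-05 to 0.0379.

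FDFT1 stood at 111 CPM ± 64.7 in MOLM13 and 206 CPM ± 19.1 in K562, a log2 difference of -0.90 (SE 0.33, edgeR adjusted p = 0.0415). Its call was lost when any library other than MOLM13 DMSO pair 4 was left out, with adjusted p of 0.0510 to 0.122, and without MOLM13 DMSO pair 4 the difference was -1.36 (adjusted p = 0.000508). HMGCS1 stood at 77.8 CPM ± 58.9 against 159 CPM ± 43.7, a difference of -1.04 that missed the threshold in edgeR (adjusted p = 0.0644) and passed it with DESeq2 (adjusted p = 0.0421) and limma-voom (adjusted p = 0.0232). Without MOLM13 DMSO pair 4 it was -1.67 (adjusted p = 0.00124), and without K562 DMSO pair 4 it was -1.20 (adjusted p = 0.0365). Over all fits its adjusted p ran from 0.00124 to 0.167. ABCA1 stood at 8.53 CPM ± 1.41 in MOLM13 and 2.80 CPM ± 1.61 in K562, 2.97-fold higher in MOLM13 (log2 difference 1.57, SE 0.33, edgeR adjusted p = 0.00189). IDI1 and SREBF2 had differences of -0.14 (-0.96 to 0.67) and -0.02 (-0.63 to 0.60).

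**Figure D4:**
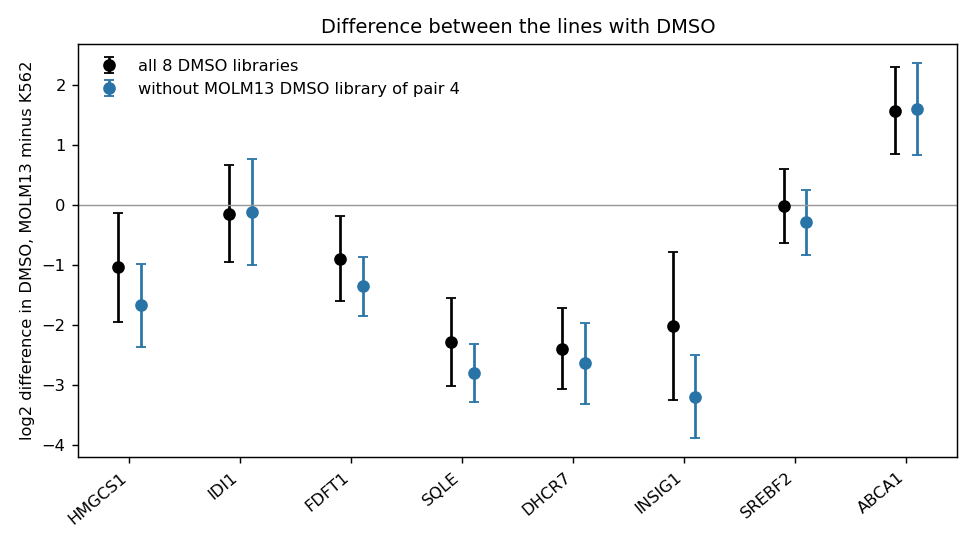
Log2 difference of each member between the DMSO libraries, MOLM13 minus K562, with 95% intervals from edgeR, for all 8 libraries (black) and without the MOLM13 DMSO library of pair 4 (blue). Without that library INSIG1 moves from -2.02 to -3.20 and HMGCS1 from -1.04 to -1.67, and ABCA1 stays near 1.6.

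Beside the members, 12 of 16 other synthesis enzymes were lower in MOLM13 and 1 was higher, PMVK, with a log2 difference of 1.19 (edgeR adjusted p = 0.00245). The median over that list was -1.10, against 0.00 over all genes tested. MVD, mevalonate diphosphate decarboxylase, had -2.41, TM7SF2, a sterol reductase, had -1.90, and MSMO1 had -1.67, each past the threshold. FDPS, LBR and HSD17B7 had 0.42, -0.28 and 0.10 and did not pass. Of the genes of SREBP processing and sterol uptake, 4 of 10 were lower and 0 higher, among them SCAP at -0.89 and STARD4, a sterol carrier, at -2.23. Of the LXR list, 2 of 6 were higher, among them NR1H2, the LXR-beta receptor, at 0.90, and 1 was lower. Of the SREBP1 and fatty acid list 5 of 9 were lower, with ELOVL6, a fatty acid elongase, at -3.59, and 1 was higher, FADS2, a fatty acid desaturase, at 1.34. Scaling to library totals moved the median of all genes to -0.41. Then 5 of 8 members were called lower and 1 higher, beside 5008 of 15268 genes lower and 2027 higher.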

How the data were processed

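RNA from MOLM13 and K562 cells with DMSO or Ro was sequenced with a 3′ mRNA kit, with spike-in RNAs added. The authors deposited raw whole-number counts per gene from an in-house pipeline. The submitters' processing notes name Trim Galore, STAR 2.5.3a, SAMtools 1.5 and hg38, and the counting program is not given in the sources used here. Groups and pair numbers came from the sample titles.

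The main test was the quasi-likelihood F test (edgeR 4.0.16 under R 4.3.3, TMM scaling, Benjamini-Hochberg adjustment, threshold 0.05). Genes entered a fit when 4 or more of its libraries held 10 or more counts. Log2 CPM used a prior count of 2. Same-numbered libraries deviated together from their group means, with correlations of 0.38 to 0.83 in MOLM13 and 0.11 to 0.42 in K562, so the numbers, given as pairs in the titles, were used as a replicate block in a second fit. Alternatives were DESeq2 1.42.0, limma-voom (limma 3.58.1), other filters and scalings, and leaving out libraries or pairs. A count of 0 allows up to 3 counts, 0.0679 to 0.861 CPM, counting error only. The fits were tested on simulated data. Named genes were the 8 members, genes of hand-written pathway lists and the genes most alike in pattern. Members and lists were chosen with earlier results of these data known. Tables used Python 3.11.15 and pandas 2.3.3. Some listed genes are counted in totals but not reported here by name.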

Additional observations from a re-analysis of the deposited data

Results flagged for a closer look

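Of 32 groups of 4 libraries checked, 8 members in each of 4 groups, 5 held 1 library far from the other 3. Its gap to the nearest over the range of the group was above Dixon's critical value. Chance gives about 1 group in 20 only for independent groups with a normal spread. The check used CPM, not log2 CPM, and 3 of the 5 flags lay in MOLM13 pair 4, so their number cannot show an excess. INSIG1 stood at 132 CPM in MOLM13 DMSO pair 4 and at 127 CPM in MOLM13 Ro pair 4, and SQLE at 26.2 CPM in MOLM13 Ro pair 4, all above the other pairs. IDI1 stood at 0.456 CPM in K562 Ro pair 1, below the others, on 6 reads. ABCA1 stood at 3.88 CPM in K562 Ro pair 3, above the others.

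The change of INSIG1 with Ro went down in 4 of 4 MOLM13 pairs and up in 4 of 4 K562 pairs. The members were checked for such a split and the pathway lists were looked at, but its share over all genes was not counted. A gene of the SREBP1 and fatty acid list split the opposite way, up in all MOLM13 pairs and down in all K562 pairs. PMVK, SCAP and SREBF1 were among the listed genes that also went down in all MOLM13 pairs, while FDPS and NPC1 were among those that went up in all of them. The INSIG1 difference between the lines was 0.58 on the log2 scale with the block, with an edgeR adjusted p of 0.766, so it did not pass the test. Over leaving out MOLM13 pair 4 or K562 pair 4 its adjusted p was 0.892 and 0.448, and DESeq2 with the block gave 0.472.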

How the results depend on the processing

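With the replicate block the genes called with Ro went from 0 to 317 in MOLM13 and to 6 for the average over lines, and the block changed no member's call. Other MOLM13 counts were 1 gene with DESeq2, 266 with DESeq2 and the block, and, chosen after seeing the data, 264 and 337 with the block and library totals or DESeq2 size factors. DESeq2 with the block called 2 genes in K562, 3 for the difference between lines and 29 for the average. K562 pairs 1 and 3 with the block called 418 genes and 1 member. Without pair 1, 2, 3 or 4 the blocked MOLM13 fit called 106, 187, 49 and 358 genes, and the average called 1 without MOLM13 pair 4 and 21 without K562 pair 4, both added after seeing the data.

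Signs of uncalled log2 changes turned as follows. With library totals in MOLM13 they were FDFT1 0.043, DHCR7 0.013 and SREBF2 0.0084, and with the block as well HMGCS1 0.045, FDFT1 0.0016 and SREBF2 0.027. In K562 pairs 1 and 3 with the block they were SQLE -0.010, DHCR7 0.19, SREBF2 0.10 and ABCA1 0.086. With the block and 1 pair left out they were, in MOLM13, DHCR7 0.0076 without pair 1, and HMGCS1 0.090 and SREBF2 0.030 without pair 4, and in K562 IDI1 0.25 and ABCA1 0.028 without pair 1, and DHCR7 0.13, SREBF2 0.071 and ABCA1 0.24 without pair 4. Between the lines without a filter the value was SREBF2 0.0047. Leaving out 1 library without the block gave HMGCS1 -0.54 to 0.54, FDFT1 -0.52 to 0.42, SQLE -0.77 to 0.21, DHCR7 -0.37 to 0.22, INSIG1 -1.50 to 1.03 and SREBF2 -0.25 to 0.22 in MOLM13, IDI1 -0.34 to 0.10, FDFT1 -0.0030 to 0.15, DHCR7 -0.10 to 0.062, SREBF2 -0.22 to 0.044 and ABCA1 -0.40 to 0.11 in K562, SQLE -0.10 to 0.90 and INSIG1 -0.72 to 1.83 for the difference between changes and IDI1 -0.37 to 0.044 and SREBF2 -0.29 to 0.19 between the DMSO libraries. DHCR7, SQLE, INSIG1 and ABCA1 kept their direction and call between the lines in every alternative run. When 1 library was left out 4 to 6 of the 8 members were called, beside 5048 of 14754 to 6582 of 14713 genes. The causes were not tested. In K562, 3 libraries held 2 to 8 reads of IDI1 and 1 held 3 reads of ABCA1, so counting error is large there.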
